A study of Arabidopsis thaliana with 30 samples.

Results

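A group of 7 heat shock factor (HSF) genes of Arabidopsis thaliana whose transcripts are induced by heat were followed here, chosen by locus from the count table. They are HSFA2 (AT2G26150), HSFA3 (AT5G03720), HSFA7A (AT3G51910), HSFA7B (AT3G63350), HSFB1 (AT4G36990), HSFB2A (AT5G62020) and HSFB2B (AT4G11660), 7 of 37513 entries in the table. All 7 were among the 19761 genes with enough counts to be tested. Transcripts were counted in leaves of 3 lines at 5 stages, with 2 biological replicates per treatment and 30 libraries in all. The lines were untransformed ecotype Columbia (WT), L12 plants overexpressing Ah2880 and L13 plants overexpressing AhHAB4-PAI-1. Each transgene is an amaranth gene driven by the constitutive 35S promoter of cauliflower mosaic virus, and each overexpressing (OE) line is a single homozygous line, so line and transgene cannot be told apart. Plants 4 weeks old were held at 45 °C for 1 h (HS-1), 5.5 h (HS-5) or 11 h (HS-11), or for 22 h followed by 1 d (R-1) or 3 d (R-3) of recovery at 22 °C. Every replicate pooled leaves of 10 plants, and light was kept on during the heat. Every group had been heated, so the levels are compared with one another and not with an unheated baseline.

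HSFs bind heat shock elements, which are alternating repeats of the unit nGAAn and its reverse complement, and so switch on chaperone genes. In Arabidopsis the constitutively made HSFA1 factors start the response, and a second tier of HSF genes is then transcribed. Class A members carry activation domains. HSFA2 prolongs chaperone transcription and acts in heat memory, HSFA3 is switched on through DREB2A and can act together with HSFA2, and HSFA7A and HSFA7B are further activators of the second tier. Class B members lack that activation domain. HSFB1 and HSFB2B repress heat-inducible HSF genes, and HSFB2A is a class B factor whose best known role is in gametophytes.

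The 300 bases before each annotated start were read from TAIR10.1 (RefSeq) and searched for alternating units, GAANNTTC or TTCNNGAA, which read the same on both strands. In all, 3 of the 7 genes, HSFA2, HSFA7A and HSFA7B, held a run of 3 alternating units, against 133 of 27443 protein-coding genes (0.485%). The same 3 genes were the only ones of the 7 with a run of 2 or more units, which 19.3% of protein-coding genes hold. Their windows are shown because these 3 had the widest ranges of level of the 7 as a ratio of highest to lowest treatment mean. For HSFA7A and HSFA7B the lowest mean, in L13 at R-1, rested on 1 and 2 counts and on 0 counts. As a difference, HSFB1 had a wider range than both, in CPM, the scaled counts described below. It ran from 70.4 to 2602 CPM, against 0.541 to 923 for HSFA7A and 0 to 680 for HSFA7B. Capitals mark the units.
HSFA2 (chr2:11135324-11135623, plus strand): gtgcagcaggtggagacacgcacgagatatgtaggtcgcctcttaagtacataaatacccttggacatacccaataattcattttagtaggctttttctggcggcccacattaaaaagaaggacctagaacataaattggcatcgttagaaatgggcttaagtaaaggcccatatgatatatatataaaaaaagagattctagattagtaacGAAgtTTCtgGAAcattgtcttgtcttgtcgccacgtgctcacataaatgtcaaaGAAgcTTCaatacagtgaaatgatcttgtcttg
HSFA7A (chr3:19264841-19265140, plus strand): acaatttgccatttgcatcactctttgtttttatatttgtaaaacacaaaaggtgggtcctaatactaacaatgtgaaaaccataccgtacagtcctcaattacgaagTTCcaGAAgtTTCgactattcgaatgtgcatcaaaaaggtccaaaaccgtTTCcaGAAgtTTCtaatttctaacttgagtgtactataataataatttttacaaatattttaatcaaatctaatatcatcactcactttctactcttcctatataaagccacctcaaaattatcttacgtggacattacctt
HSFA7B (chr3:23398936-23399235, plus strand): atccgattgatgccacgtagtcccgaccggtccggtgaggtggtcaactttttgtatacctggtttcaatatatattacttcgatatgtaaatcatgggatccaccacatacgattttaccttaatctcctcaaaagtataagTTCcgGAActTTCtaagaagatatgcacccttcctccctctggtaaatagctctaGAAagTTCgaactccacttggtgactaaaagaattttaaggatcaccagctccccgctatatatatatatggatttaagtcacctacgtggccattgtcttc
The run of 3 units lay 88 to 76 bases before the start in HSFA2 and 157 to 145 bases before it in HSFA7B. HSFA7A had a pair of such runs of identical sequence, at 192 to 180 and at 142 to 130 bases. HSFA2 and HSFA7B each had a further run of 2 units, at 33 to 26 and at 102 to 95 bases. No run of these letters was found in the windows of HSFA3, HSFB1, HSFB2A or HSFB2B. A search of the same windows for the drought responsive core bound by DREB2 factors, ACCGAC or GCCGAC on either strand, found it in HSFB2A alone, 71 to 66 bases before the start, and in 8.24% of protein-coding genes. The window of HSFA3, a gene known to be under DREB2A, is shown without capitals for comparison.
HSFA3 (chr5:974327-974626, minus strand): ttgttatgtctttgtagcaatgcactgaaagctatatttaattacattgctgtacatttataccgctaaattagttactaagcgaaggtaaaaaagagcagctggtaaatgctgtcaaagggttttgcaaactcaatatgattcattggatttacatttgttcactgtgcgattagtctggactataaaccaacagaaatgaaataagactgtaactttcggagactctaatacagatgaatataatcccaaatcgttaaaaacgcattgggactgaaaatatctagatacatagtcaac

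**Figure D1:**
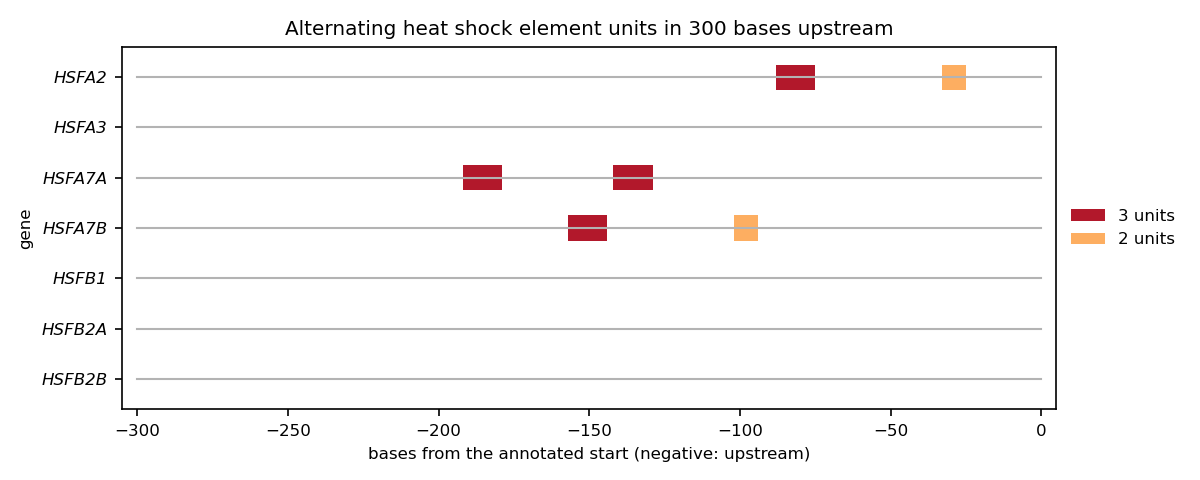
Runs of alternating heat shock element units in the 300 bases upstream of each gene, with distance from the annotated start in bases on the x axis and the 7 genes on the y axis. Dark bars are runs of 3 units and light bars runs of 2 units. HSFA2, HSFA7A and HSFA7B hold them, at 26 to 192 bases from the start, and the other 4 windows hold none.

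The libraries held 46825 to 5739590 counts, with a median of 2565864. The WT R-3 libraries held only 46825 and 50677 counts and stood apart, so WT at R-3 is given with its counts. Levels are CPM, counts set to a common library size with TMM factors, and 1 count stood for 12.6 or 11.5 CPM in those libraries. Those factors differed between treatments, and leaving them out moved the median log2 difference of all genes by more than 0.1 in 27 of 34 comparisons, by -0.83 to 0.92. Reads of HSFB1 and of AT4G36988, the upstream reading frame annotated on its transcript, had identical counts in 30 of 30 libraries, 27194 in all, so HSFB1 stands for both. HSFB2B overlaps AT4G11670 on the other strand by 308 bases, and AT4G11670 had 45.4% as many counts. HSFA3 overlaps AT5G03710 on the other strand by 486 bases, with 3.23% as many counts. The use of strand in counting was not given in the sources used here, so reads of these overlapping genes may not be separable. The 4 leaf markers (RBCS1A, RBCS3B, CAB1 and RCA) summed to 2029 to 27676 CPM and none was at 0 in any library. Seed markers summed to at most 3.22 CPM, those of root hairs to at most 0.681 CPM and the pollen marker VGD1 reached at most 9.64 CPM. In whole leaves, fewer cells that express a gene and less RNA of it per cell cannot be told apart.

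HSFA2 was the most abundant of the 7 per length at HS-1. WT had 1463 CPM per kb of exon of HSFA2, 592 of HSFB1, and between 29.1 (HSFA3) and 180 (HSFA7A) of the other 5. Its CPM in the replicates were 2735 and 2753 in WT, 2091 and 2186 in Ah2880 OE plants and 5812 and 6191 in AhHAB4-PAI-1 OE plants at HS-1. At HS-5 they were 751 and 704 in WT, 194 and 233 in L12 and 1304.9 and 1469 in L13. At HS-11 they were 1813 and 2312 in WT, 1449 and 1217 in L12 but only 283 and 257 in L13. Libraries of the 3 lines did not overlap at any of these stages, and L13 went from the highest line to the lowest between HS-5 and HS-11. In recovery HSFA2 stood at 18.3 and 15.6 CPM in WT, 12.4 and 9.51 in L12 and 5.41 and 4.87 in L13 at R-1. The mean order over the 15 treatments ran from L13 at HS-1 (6002 CPM) to L13 at R-1 (5.14 CPM), and 4 of 14 neighbours in that order had overlapping libraries.

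HSFA7A and HSFA7B were also highest in L13 at HS-1 and lowest in L13 at HS-11 among the lines, at lower levels than HSFA2. HSFA7A CPM were 204 and 212 in WT, 165 and 155 in L12 and 902 and 944 in L13 at HS-1. At HS-11 they were 63.1 and 63.2 in WT, 36.2 and 37.4 in L12 and 8.57 and 9.09 in L13. HSFA7B CPM were 179 and 178 in WT, 116 and 117 in L12 and 663 and 697 in L13 at HS-1. L13 was thus above both other lines after 1 h for each gene, with no overlap. At HS-11 HSFA7B stood at 94.6 and 128 CPM in WT and 63.6 and 51.4 CPM in L12, whereas L13 had 2.52 and 0.988 CPM, from 15 and 5 counts. HSFA7B had 3 counts or fewer in each library of 6 treatments, all of them in recovery, and HSFA7A in 2. At R-1 HSFA7A was at 9.01 and 12.4 CPM in L12 (8 and 17 counts), above the 0.817 and 0.652 CPM of WT (3 and 3 counts) and the 0.677 and 0.406 CPM of L13 (1 and 2 counts).

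HSFA3 did not share that course. Its CPM were 67.3 and 61.3 in WT, 58.4 and 74.1 in L12 and 22.2 and 28.0 in L13 at HS-1. They were 337 and 339 in WT, 177 and 153 in L12 and 97.6 and 109 in L13 at HS-5, and 519 and 609 in WT, 345 and 301 in L12 and 294 and 284 in L13 at HS-11. HSFA3 was therefore lowest at HS-1 and highest at HS-11 among the heat stages in every line, and WT was above L13 in every library of the 3 heat stages. In recovery it was at 20.2 and 20.4 CPM in WT, 3.38 and 2.93 CPM in L12 and 10.8 and 12.8 CPM in L13 at R-1.

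The class B genes kept a higher floor in recovery. HSFB1 CPM were 1059 and 1053 in WT, 701 and 755 in L12 and 2528 and 2677 in L13 at HS-1. They were 336 and 396 in WT, 435 and 415 in L12 and 179 and 172 in L13 at HS-11, where the libraries of L13 were below all others. At R-1 they were 102 and 103 in WT, 224 and 221 in L12 and 75.8 and 93.1 in L13. HSFB2A ranged over the treatment means from 17.9 CPM (L12 at HS-5) to 369 CPM (L13 at HS-1), and HSFB2B from 15.4 CPM (L12 at HS-5) to 456 CPM (L13 at HS-1). Of the 7 genes, HSFB1, HSFB2A and HSFB2B were the ones with more than 3 counts in some library of every treatment. HSFB1 at WT R-3 was 353 and 496 CPM, from 28 and 43 counts.

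**Figure D2:**
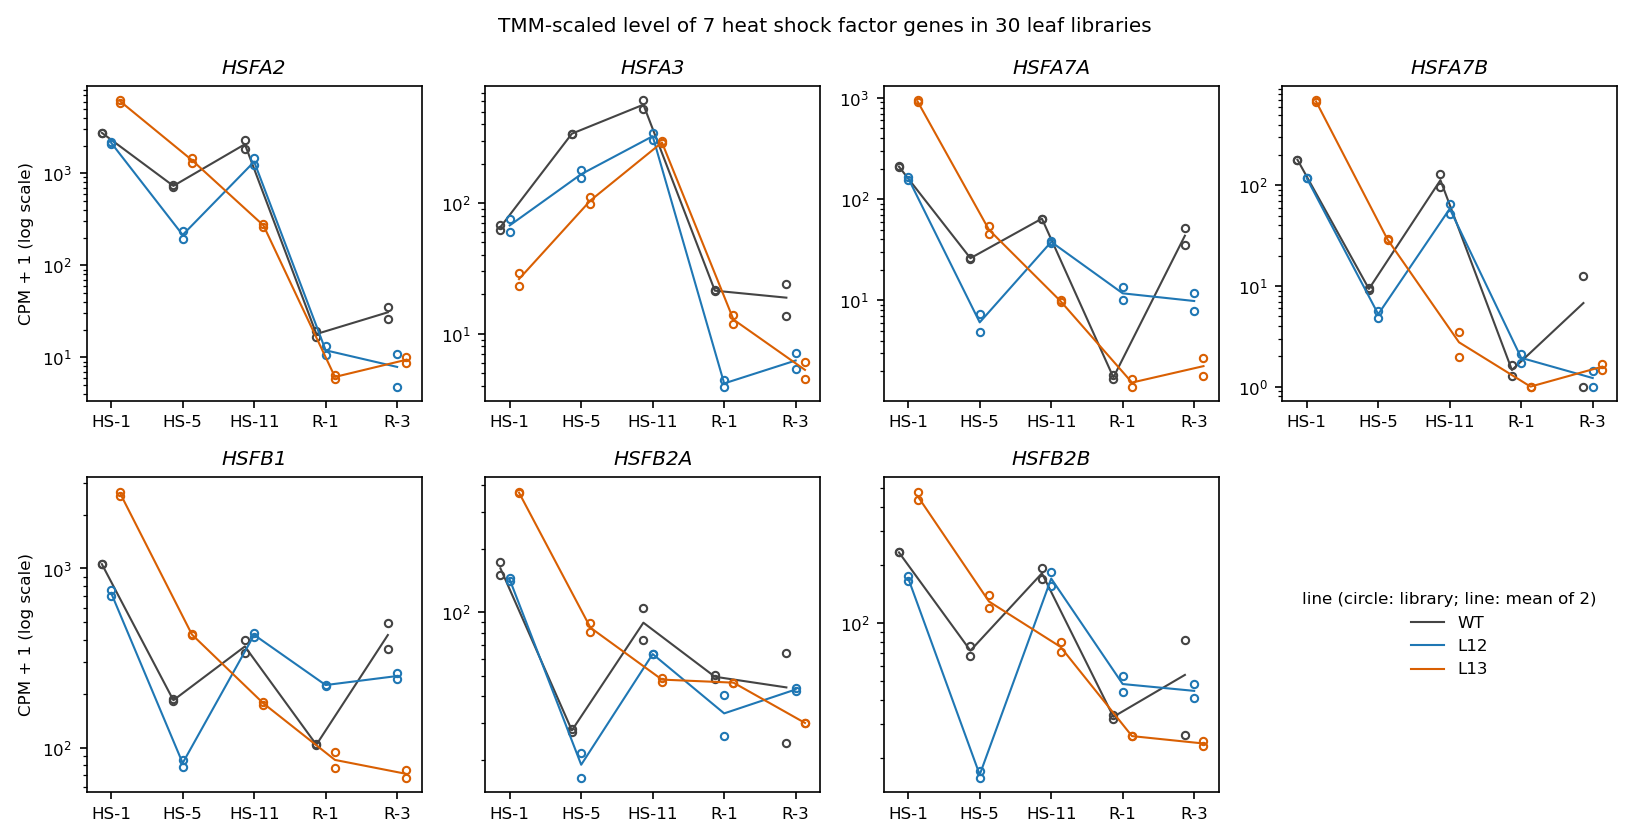
Level of each of the 7 genes in the 30 libraries, as TMM-scaled CPM plus 1 on a log axis against stage. Circles are libraries, lines join the means of 2 replicates, and colours are WT, L12 (Ah2880 OE) and L13 (AhHAB4-PAI-1 OE). L13 starts highest and falls through HS-11 for every gene but HSFA3, whereas WT and L12 dip at HS-5 and return at HS-11 for the same 6 genes.

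In WT, 6 of the 7 genes fell from HS-1 to HS-5 and HSFA3 rose, where 38.8% of the genes tested passed in either direction (edgeR quasi-likelihood test, Benjamini-Hochberg adjusted p under 0.01, as in all comparisons below). The log2 changes were -1.91 for HSFA2, -3.05 for HSFA7A, -4.41 for HSFA7B, -2.53 for HSFB1, -2.60 for HSFB2A and -1.70 for HSFB2B, against 2.39 for HSFA3 (standard error 0.12, adjusted p = 2.93e-23). From HS-5 to HS-11, 7 rose and 0 fell, against 21.6% and 27.9% of genes. HSFA7B rose the most (3.76, SE 0.19), followed by HSFB2A (1.77), HSFA2 (1.51), HSFA7A and HSFB2B (1.33 each), HSFB1 (1.01) and HSFA3 (0.74). All genes had a median change of -0.32 over that step, and HSFA3 was at 0.22 (adjusted p = 0.062) with library totals in place of TMM. Between HS-11 and R-1, which spans 11 h more heat and 1 d of recovery, 0 rose and 7 fell, against 30.2% and 25.3%. HSFA2 fell by 6.93 and HSFA3 by 4.80 on the log2 scale. HSFA7A and HSFA7B went to 3 counts or fewer per library, with ratios of 87.1 (95% counting interval 39.1 to 241) and 239 (92.1 to 882). The fitted change of HSFA7B was -7.74, and -8.47 without WT R-1 replicate 2. HSFB1 fell by 1.84, HSFB2B by 2.49 and HSFB2A by 0.90, the last of which did not pass without WT HS-11 replicate 2 (-0.59, adjusted p = 0.0196) or with library totals (-0.02).

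L12 moved in the same directions. From HS-1 to HS-5, 6 fell and HSFA3 rose, against 33.4% of genes in either direction, and from HS-5 to HS-11 7 rose and 0 fell, against 19.3% and 26.3%. Falls to HS-5 reached -4.93 for HSFA7A and -4.75 for HSFA7B, and HSFB2B fell by 3.47 and returned by 3.47. From HS-11 to R-1, 0 rose and 7 fell, against 22.5% and 29.1%, but HSFA7A fell by only 1.73 and HSFB1 by 0.94. HSFB2A fell by 0.90, a call lost without L12 R-1 replicate 1 (-0.66), and with library totals neither HSFB1 (-0.35) nor HSFB2A (-0.31) passed. From R-1 to R-3, 0 of the 7 and 0% of all genes passed in either direction. At an unadjusted p under 0.05 that step had 1073 genes and 0 of the 7, and DESeq2 called 0 genes.

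L13 departed from both at HS-11. From HS-1 to HS-5 its 6 genes fell and HSFA3 rose, against 22.1% of genes in either direction, with changes of -2.11 for HSFA2 and 1.99 for HSFA3. From HS-5 to HS-11 HSFA3 rose again by 1.48 (SE 0.13), against 8.05% of genes, and the other 6 fell instead of rising, against 11.7%. HSFA7B fell by 3.91, HSFA7A by 2.46, HSFA2 by 2.36, HSFB1 by 1.28, HSFB2A by 0.83 and HSFB2B by 0.79. Of the genes called in that step 40.8% were higher, and 84.4% with library totals, under which HSFB2A (-0.43, adjusted p = 0.0175) and HSFB2B (-0.39, adjusted p = 0.0138) did not pass. HSFA7B moved from -3.91 to -4.75 without L13 HS-11 replicate 1. From HS-11 to R-1, 0 rose and 6 fell, against 24.9% and 24%, led by HSFA2 (-5.74) and HSFA3 (-4.56), and HSFB2A had -0.05 (interval -0.34 to 0.25). HSFA7B was at 0 counts in both libraries, at least 1.33-fold lower, and its call was lost without L13 R-1 replicate 2. HSFA3 (-1.59) and HSFB2A (-0.65) fell from R-1 to R-3 and 0 rose, where 6.7% of genes fell and 10.9% rose, but neither passed without L13 R-1 replicate 2.

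**Figure D3:**
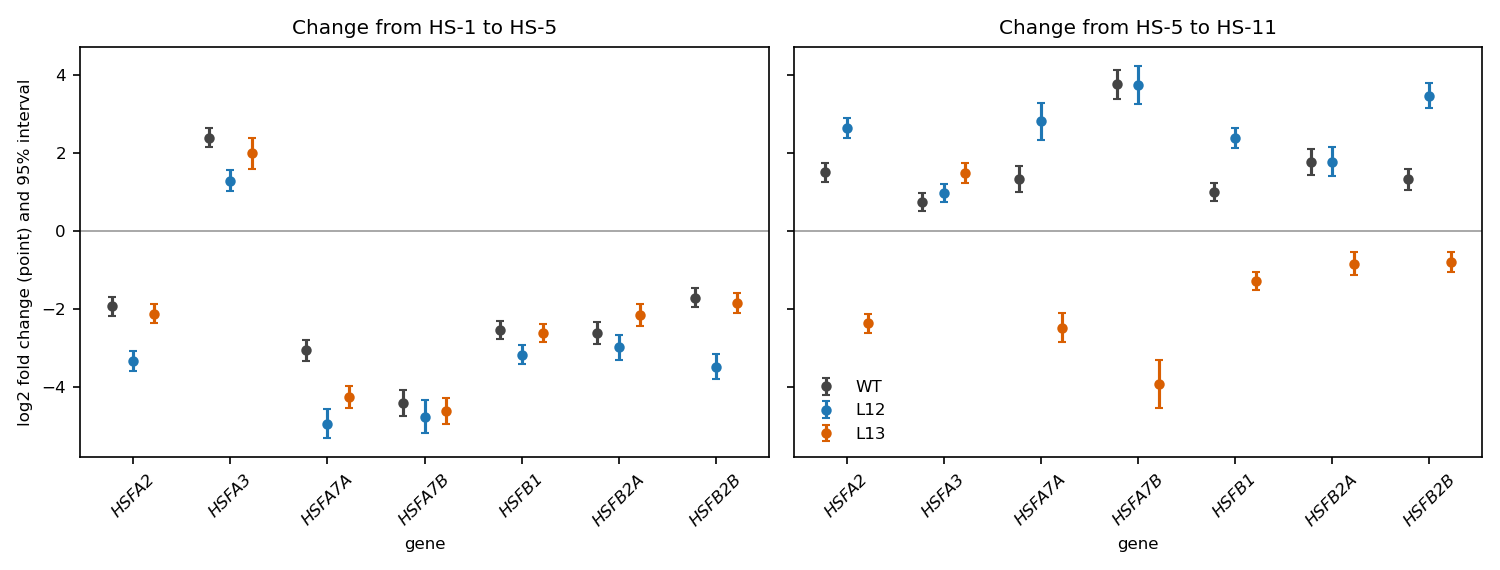
Fitted log2 change of each gene from HS-1 to HS-5 (left) and from HS-5 to HS-11 (right) in the 3 lines, with points for the change and bars for its 95% interval. In the right panel WT and L12 lie above 0 for all 7 genes, and L13 lies below 0 for all but HSFA3.

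The difference of these changes between an OE line and WT was tested directly. Between HS-5 and HS-11 the change of L13 minus that of WT passed for 7 of 7 genes, where 47.5% of all genes passed in either direction. It was -7.67 (SE 0.36, or -8.51 without L13 HS-11 replicate 1) for HSFA7B, -3.87 (SE 0.17) for HSFA2, -3.80 (SE 0.25) for HSFA7A, -2.60 for HSFB2A, -2.29 for HSFB1 and -2.12 for HSFB2B. HSFA3 had 0.74 (SE 0.17), which is 0.33 above the median of all genes (0.40). The calls for all 7 held without any 1 of the 8 libraries. Between HS-1 and HS-5 L13 differed from WT for HSFA7A alone (-1.19, SE 0.20), with 7.48% of genes passing. For L12 the same step passed for 5 of 7 with 5.2% of all genes, all more negative than in WT, from -0.64 (HSFB1) to -1.88 (HSFA7A). HSFB1 lost that call without 7 of the 8 libraries taken singly. From HS-5 to HS-11 4 of 7 passed in L12 with 13.6% of genes, all more positive: HSFB2B by 2.14, HSFA7A by 1.48, HSFB1 by 1.38 and HSFA2 by 1.14. From HS-11 to R-1 4 of 7 passed in L13 with 44.2% of genes, from 0.82 to 1.19, but 2 of 7 without L13 R-1 replicate 2 or WT HS-11 replicate 2 and 0 of 7 with library totals. In L12 3 of 7 passed with 18.4% of genes, HSFA7A at 4.63, HSFB1 at 0.90 and HSFA3 at -1.88, the last lost without L12 R-1 replicate 2.

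Set against WT at each stage, AhHAB4-PAI-1 OE plants had more transcript of 6 of the 7 genes at HS-1 and less HSFA3, where 6.77% of genes were higher and 6.74% lower. HSFA7A was 4.44-fold higher (log2 2.15, SE 0.11, adjusted p = 1.81e-21) and HSFA7B 3.82-fold higher. HSFB1, HSFB2A, HSFA2 and HSFB2B were 1.97- to 2.47-fold higher, and HSFA3 was 2.47-fold lower (log2 -1.30, SE 0.20, adjusted p = 1.35e-06). At HS-5 the same 6 were higher and HSFA3 was 3.26-fold lower, against 8.61% higher and 8.68% lower. HSFA7B (3.33-fold) and HSFB2A (3.15-fold) led there, and the other 4 were 1.81- to 2.33-fold higher. All 14 of these calls held in every fit that left out 1 library. At HS-11 0 were higher and 7 lower, against 53.1% of genes in either direction. HSFA7B was 61.1-fold lower (log2 -5.93, SE 0.23, or -6.78 without L13 HS-11 replicate 1), HSFA2 7.64-fold lower (-2.93, SE 0.13) and HSFA7A 7.13-fold lower (-2.83, SE 0.19). HSFB2B, HSFB1, HSFA3 and HSFB2A were 1.93- to 2.40-fold lower. Of the genes called at HS-11 55.6% were higher in L13, and 81% with library totals, which moved the median of all genes from 0.30 to 1.03. Relative to that median the 7 genes were at -6.24 to -1.25 with TMM and at -6.24 to -1.24 with library totals. In L13 with library totals HSFA3 (-0.24, adjusted p = 0.0401) and HSFB2A (-0.21) did not pass, and HSFB2A also lost the call without WT HS-11 replicate 2 (-0.64).

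In Ah2880 OE plants those of the 7 genes that passed the test during heat were all lower than in WT. At HS-1 HSFA7B (-0.61), HSFB1 (-0.54) and HSFB2B (-0.45) were lower and 0 were higher, against 1.51% and 2.98% of genes. HSFA7B and HSFB2B lost those calls without any 1 of the 4 libraries compared, and HSFB1 without L12 HS-1 replicate 1. At HS-5 0 were higher and 5 lower, against 12.1% and 9.98%. HSFA7A was 4.79-fold lower, HSFB2B 4.63-fold, HSFA2 3.41-fold, HSFB1 2.25-fold and HSFA3 2.05-fold, and these 5 held without any 1 library. HSFA7B (-0.96, adjusted p = 0.0104) and HSFB2A (-0.55, adjusted p = 0.0152) missed the threshold. Both passed as lower with library totals (-1.04 and -0.63) and without both WT R-3 libraries in the fit (-0.99 and -0.58). HSFA7B also passed with size factors of DESeq2 (-0.97). At HS-11 0 were higher and 4 lower, against 3.89% and 4.98%. They had -0.97 (HSFA7B), -0.81 (HSFA3), -0.78 (HSFA7A) and -0.63 (HSFA2), and without WT HS-11 replicate 2 only HSFA3 passed. HSFA7A lost the call without any 1 of the 4 libraries, and HSFA2 also without L12 HS-11 replicate 2. HSFB1 had 0.21 (interval -0.03 to 0.44), HSFB2A -0.53 (interval -0.87 to -0.19, adjusted p = 0.0234) and HSFB2B -0.07 (interval -0.34 to 0.20). HSFB2A passed as lower with DESeq2's test (-0.57, adjusted p = 0.00622) and without WT HS-11 replicate 1 (-0.73, adjusted p = 0.00616). With library totals HSFA2 (-0.37) and HSFA7A (-0.52) did not pass, and HSFB1 passed as higher (0.47, adjusted p = 0.00212).

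**Figure D4:**
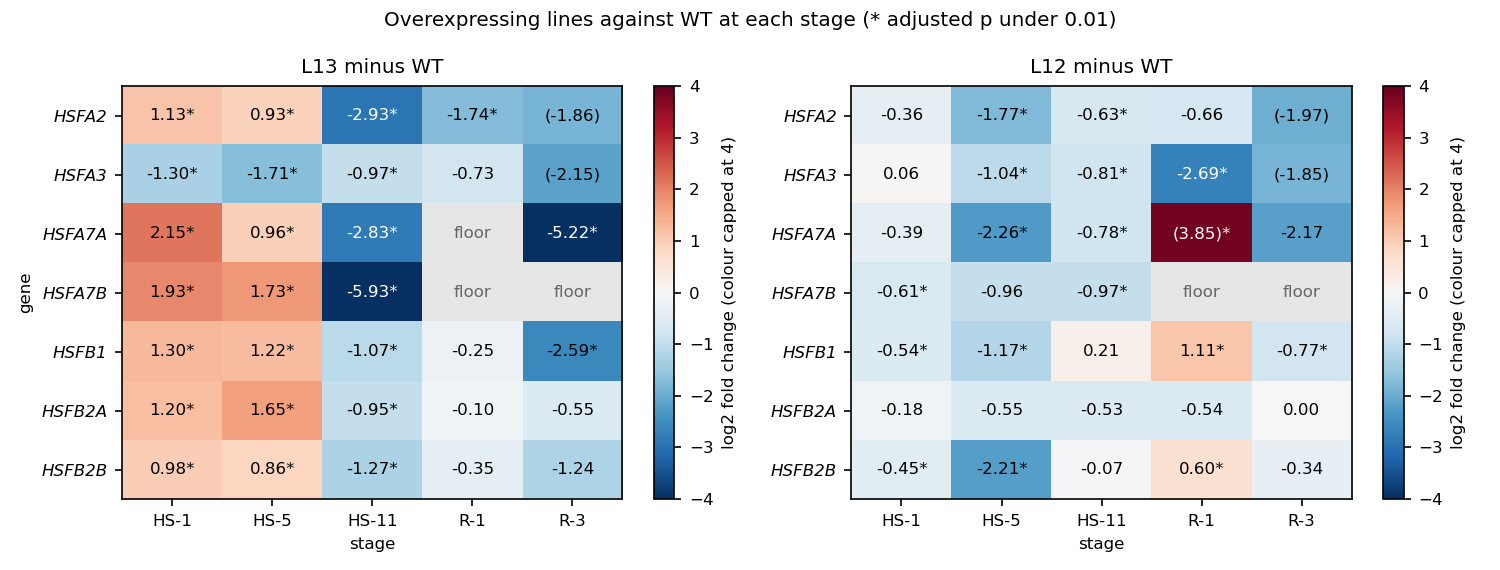
Fitted log2 fold change of each gene in L13 (left) and L12 (right) against WT, by stage, with red for higher and blue for lower in the OE line and the colour capped at 4. An asterisk marks an adjusted p under 0.01, parentheses a comparison in which 1 group had 3 counts or fewer per library, and floor both groups so. L13 is higher for 6 genes at HS-1 and HS-5 and lower for all 7 at HS-11.

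At R-1 HSFA2 was 3.35-fold lower in L13 than in WT (-1.74, SE 0.29), the only 1 of 7 called lower, with 0 higher, against 2.42% and 4.71% of genes. It did not pass without L13 R-1 replicate 2 (-1.63, adjusted p = 0.0207). In L12 at R-1 HSFA7A, HSFB1 and HSFB2B were higher and HSFA3 lower, against 11.1% and 18% of genes. HSFB1 was 2.16-fold higher (1.11, SE 0.13) and HSFA3 lower (-2.69, SE 0.39), from 3 and 4 counts in L12 against 74 and 94 in WT. HSFA7A had a ratio of 15.3 (95% counting interval 6.12 to 45.6) over the 6 counts of WT, and HSFB2B (0.60, SE 0.18) lost the call without any 1 of the 4 libraries and with DESeq2. The median of all genes was at -0.28 there, and HSFB1 was at 1.39 relative to it. At R-3 the WT libraries limited the comparison: their 7 genes rested on 0 to 43 counts, and the median of all genes was 1.51 for L13 and 1.03 for L12. HSFA7A, with 4 and 3 counts in WT (-5.22, or -4.61 without L13 R-3 replicate 1), and HSFB1 (-2.59, SE 0.22) were lower in L13 and 0 higher, against 4.5% and 11.7%. HSFB1 was lower in L12 (-0.77) and 0 higher, against 1.11% and 4.1%, but had -0.16 (adjusted p = 0.761) without WT R-3 replicate 2. In WT itself HSFA7A and HSFB1 were higher at R-3 than at R-1 and 0 lower, against 3.98% and 7.88%. HSFB1 had 2.05 (SE 0.21), and HSFA7A a ratio of 58.1 with a counting interval from 16.7 to 209.

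The OE lines were also compared directly, with the same L13 libraries as above. L13 exceeded L12 in 6 genes and was below it in HSFA3 at HS-1, against 8.28% and 8.78% of genes, and likewise at HS-5, against 12.1% and 14.4%. The gap at HS-5 was 9.34-fold for HSFA7A, 8.38-fold for HSFB2B, 6.50-fold for HSFA2 and 6.46-fold for HSFA7B, and HSFA3 was 1.59-fold lower. At HS-11 0 were higher and 5 lower, against 25.9% and 21.6%, and HSFA3 (-0.16, interval -0.39 to 0.07) and HSFB2A (-0.41, interval -0.72 to -0.10) did not pass. At R-1 HSFA3 was higher and HSFA7A, HSFB1 and HSFB2B lower, against 20.8% and 11.8%. HSFA3 and HSFB2B lost that call without L12 R-1 replicate 2, and HSFA3 also without L13 R-1 replicate 2. At R-3 0 were higher and 4 lower, against 29.3% and 14.2%, with HSFB1 3.54-fold and HSFA7A 8.29-fold lower (log2 -3.05, or -2.44 without L13 R-3 replicate 1). HSFB2A was 1.46-fold lower at R-3, a call that was lost without any 1 of the 4 libraries.

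L13 at HS-11 was also set against WT at HS-5, the WT stage at which 6 of the 7 genes, all but HSFA3, dip. The pair was chosen because earlier work on these data had found these treatments near each other over all genes. Of the genes tested 2610 passed, against 10490 for L13 and WT both at HS-11. The lower number follows from how the pair was chosen and is not a separate result. Of the other HSFs counted below 0 of 8 passed. Of 12 upstream regulators 0 were higher and 3 lower, and of 20 HSF targets 1 was higher and 13 lower. HSFB2A was higher (0.82, SE 0.15) and HSFA2 (-1.43), HSFA7A (-1.50) and HSFA7B (-2.18, or -3.02 without L13 HS-11 replicate 1) lower, against 5.18% and 8.03% of genes. HSFB1 (-0.06, interval -0.28 to 0.16), HSFB2B (0.07, interval -0.18 to 0.31) and HSFA3 (-0.22, interval -0.44 to -0.01) did not pass. HSFA2 was thus lower in L13 after 11 h than in WT after 5.5 h, and the replicates did not overlap.

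Beside the 7 genes were counted 12 upstream regulators, namely the HSFA1 and DREB2 factors with NF-YC10, MBF1C, HSBP and the FKBP62 and FKBP65 cochaperones, and 20 HSF targets, mostly small heat shock proteins. In L13 at HS-1 7 of 12 upstream genes and 13 of 20 targets were higher than in WT and 0 of either lower. Their medians were 0.79 and 0.52 against -0.05 for all genes, of which 6.77% were higher and 6.74% lower. FKBP62, which modulates HSFA2, led the upstream genes (1.64, SE 0.11) and HSP15.7, a small heat shock protein, the targets (1.38, SE 0.12). At HS-5 20 of 20 targets were higher (median 1.30), led by HSP26.5 (2.93) and APX2 (2.39), a cytosolic ascorbate peroxidase, whereas of the upstream genes 4 were higher and 3 lower. DREB2C (-2.76, SE 0.34) and HSFA1A (-1.83, SE 0.44) were among the 3. Of all genes 8.61% were higher and 8.68% lower at that stage. At HS-11 8 of 12 upstream genes and 20 of 20 targets were lower and 0 higher, with medians of -1.14 and -3.19 against 0.30 for all genes. DREB2C (-3.85), MBF1C, a coactivator of heat tolerance (-2.80), HSP23.6, a mitochondrial small heat shock protein (-4.20), and HSP15.7 (-4.14) led. Of all genes 53.1% passed there in either direction.
In L12 the upstream genes and targets lower than WT numbered 1 of 12 and 8 of 20 at HS-1, 8 of 12 and 18 of 20 at HS-5, and 3 of 12 and 18 of 20 at HS-11, with 0 higher at each. Of all genes 1.51%, 9.98% and 4.98% were lower in L12 at these stages, and 2.98%, 12.1% and 3.89% higher. At HS-5 DREB2A (-2.0), MBF1C (-1.73), HSP15.7 (-1.82) and HSP90.1, a cytosolic chaperone (-1.81), led. At R-1 13 of 20 targets were lower in L13, and 14 lower and 1 higher in L12, where the plastid HSP21 had -4.03 (SE 0.16). The shares differed there, with 2.42% of all genes lower and 4.71% higher in L13, and 18% lower and 11.1% higher in L12. At R-3, against the WT libraries of 46825 and 50677 counts, 17 targets were lower in L13 (median -2.16 against 1.51 for all genes) and 6 in L12 (-0.81 against 1.03), where 4.5% and 1.11% of all genes were lower. The other HSFs, 10 listed and 8 tested, were counted too. In L13 at HS-11 6 of 8 were higher than in WT and 0 lower (median 1.5 against 0.30 for all genes), where 53.1% of all genes passed in either direction and 55.6% of those were higher. At HS-5 0 were higher and 4 lower (median -1.46 against -0.05), against 8.61% and 8.68% of all genes. A run of 3 units stood in the windows of 4 of the 20 targets, 1 of the 12 upstream genes and 0 of the 10 other HSFs, against 0.485% of protein-coding genes. Runs of 2 or more units stood in 11 of the 20 targets, 2 of the 12 upstream genes and 1 of the 10 other HSFs. Of protein-coding genes 19.3% held one.

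**Figure D5:**
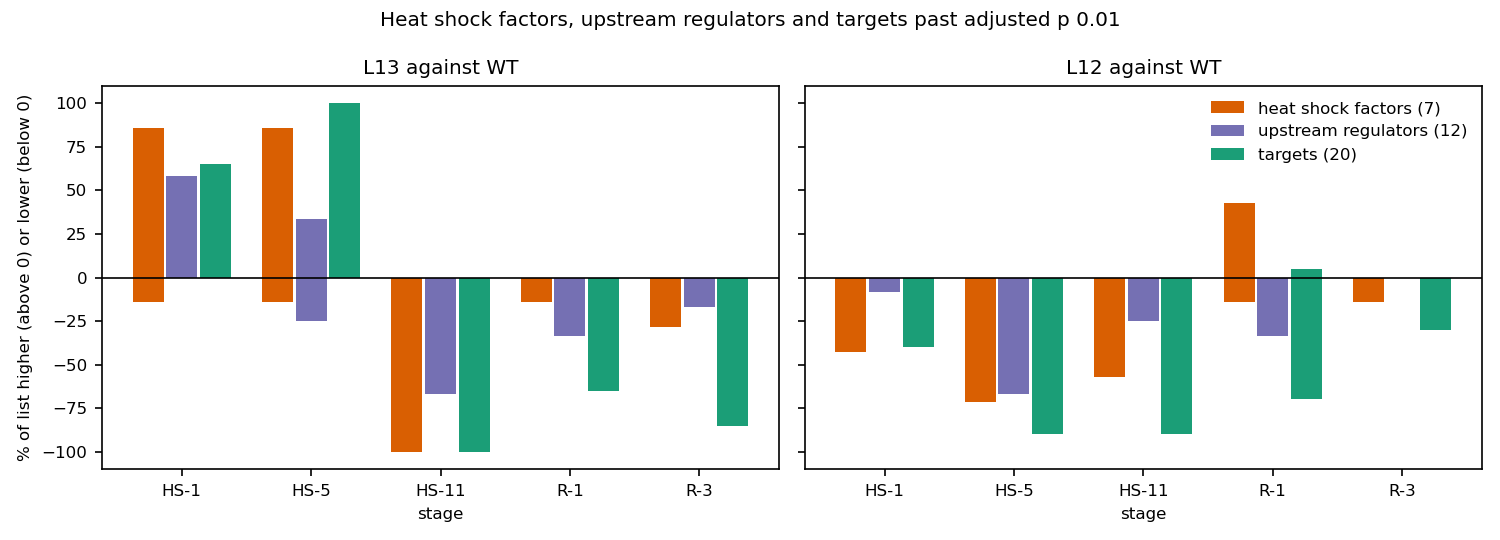
Share of each gene list past the threshold against WT by stage, in L13 (left) and L12 (right), with the percent of the list higher in the OE line above 0 and lower below 0. Colours are the 7 heat shock factors, 12 upstream regulators and 20 targets. In L13 most of the factors and targets are higher at HS-1 and HS-5, the upstream regulators are split at HS-5 (4 higher and 3 lower), and none is higher at HS-11, where all 7 factors and all 20 targets are lower.

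Over the 14 treatment means without WT R-3, log2 levels of the 7 genes were compared with one another and with every other gene, as a description, since the means share the heating course and the lines share stages. Pearson's r was 0.96 between HSFA7A and HSFB1, 0.95 between HSFB1 and HSFB2B, 0.94 between HSFA7A and HSFA7B and 0.93 between HSFA2 and HSFA7B. HSFA3 correlated at 0.73 with HSFA2, at 0.48 with HSFA7B and at 0.10 to 0.39 with the other 4. The 3 genes most like HSFA2 were AT1G59860 (r = 0.99), HSP101 (0.99) and Cpn60beta2 (0.99). For HSFA3 they were AT1G63250 (0.97), ECR1 (0.96) and MIR398b (0.95). AT3G62260 led for HSFA7A (0.98), AT1G74300 for HSFA7B (0.99), along with HSP81-3 (0.99), and DGD2 for HSFB2A (0.97). AT1G55530 led for HSFB2B (0.98), followed by the overlapping AT4G11670 (0.98), and for HSFB1 the leading gene after its own upstream reading frame was AT5G38895 (0.98).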

How the data were processed

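Leaf mRNA was enriched with oligo(dT), sequenced and counted per locus by the authors, who aligned reads to TAIR10 with Bowtie2, removed duplicates with Picard and counted with Subread; the annotation release and the use of strand are not given in the sources used here. The deposited values are whole-number read counts, not normalized, for 37513 entries in 30 libraries, of which 28253 had counts. Here genes were filtered with edgeR's filterByExpr (19761 kept) and scaled by TMM. They were tested with edgeR's quasi-likelihood test (edgeR 4.0.16, limma 3.58.1, R 4.3.3) in 1 model of the 15 treatments. Benjamini-Hochberg adjustment covered all genes tested. A prior count of 2 was used for log2 CPM, as in the correlations, and was not set in the fit of changes. The threshold was an adjusted p under 0.01, as in the study's methods. The biological coefficient of variation was 0.077 on 15 residual degrees of freedom. Intervals of fitted changes are at 95%. Counting intervals and floors (3 counts per library) cover counting error only. DESeq2 1.42.0 was an alternative. Exon lengths, positions and sequences are from RefSeq, TAIR10.1. The members, the lists of upstream regulators, targets and other HSFs and the motifs were chosen with earlier results of these data known. The study's own lists from these libraries also name HSFA2 and, as HSF7, the locus of HSFB2B. All 7 members were named, and in each comparison up to 2 upstream or target genes with the largest change past the threshold. The replicates are separate pools of plants, and the sources used here do not make clear whether these were heated in separate runs. Standard errors and p-values therefore measure spread between such pools, and not how a line or treatment would differ in a repeated experiment. The chi-square per gene between replicates ran from 1.04 (WT HS-5) to 4.97 (L12 HS-5), where counting error alone gives about 1. Series text gives 5 h as well as 5.5 h for HS-5, and the study's text gives an age of 3 weeks where the labels give 4 weeks, and the labels were followed for the age and the sample titles for the time.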

Additional observations from a re-analysis of the deposited data

Results flagged for a closer look

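The changes between stages differed between an OE line and WT, by a test of the difference itself, in 24 results, from 7 genes in 6 comparisons. From HS-1 to HS-5, HS-5 to HS-11 and HS-11 to R-1, 7.48%, 47.5% and 44.2% of all genes passed in L13. In L12 the shares were 5.2%, 13.6% and 18.4%. Such a difference held in L13 from HS-1 to HS-5 for HSFA7A (-1.19). From HS-5 to HS-11 it held in L13 for HSFA2 (-3.87), HSFA3 (0.74), HSFA7A (-3.80), HSFA7B (-7.67), HSFB1 (-2.29), HSFB2A (-2.60) and HSFB2B (-2.12), the step at which L13 fell while WT rose for all but HSFA3. From HS-11 to R-1 it held in L13 for HSFA2 (1.19), HSFB1 (0.82), HSFB2A (0.85) and HSFB2B (0.92), each of which lost the call when library totals replaced TMM. HSFA2, HSFB1 and HSFB2A also lost it in some fits without 1 library.

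In L12 from HS-1 to HS-5 it held for HSFA2 (-1.41), HSFA3 (-1.10), HSFA7A (-1.88), HSFB1 (-0.64) and HSFB2B (-1.76). From HS-5 to HS-11 it held in L12 for HSFA2 (1.14), HSFA7A (1.48), HSFB1 (1.38) and HSFB2B (2.14), and from HS-11 to R-1 for HSFA3 (-1.88), HSFA7A (4.63) and HSFB1 (0.90). The HS-1 to HS-5 call of HSFB1 was lost in most fits without 1 library. The HS-11 to R-1 call of HSFA3 was lost without L12 R-1 replicate 2. All values are log2 differences of changes, the OE line minus WT. L13 and L12 were compared with the same WT libraries.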

How the results depend on the processing

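Of 238 values (7 genes in 34 comparisons) 162 were called, and 23 of these lost the call without 1 library. The replicate block, which fits the replicate number of the labels as a term, changed 1 call: HSFB2B in L12 against WT at HS-1 (-0.45, adjusted p = 0.0106). Between treatments the difference of replicate 1 minus replicate 2 correlated at -0.21 to 0.14 (median -0.002), and exceeded 0.1 in 3 of 105 pairs. Shared heating runs cannot be read from this, since replicate numbers may not match between treatments. Size factors of DESeq2 changed 5 calls, DESeq2's test 6, no filter on low counts 3, and the fit without both WT R-3 libraries 6 of 217. With only the libraries of the treatments compared 1 call was lost and 6 were gained, of 236 values. The alternative with library totals in place of TMM was chosen after seeing the data. It changed 23, among them 1 reversal, HSFB1 in the L13 minus WT change from HS-11 to R-1 (-0.023), where 0 of 7 rather than 4 passed. It moved the share of called genes that were higher by over 10 points in 28 of 33 comparisons.

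The number of the 7 past the threshold moved by over 1.5 times elsewhere as follows. With only the libraries of the treatments compared it was 5 rather than 3 for L12 against WT at HS-1. For WT from R-1 to R-3 it was 1 rather than 2, since HSFA7A, with 3 or 4 counts per library there, was not tested in that fit. For L12 against WT at R-3 it was 0 rather than 1. That last count was also 0 with no filter and 2 with DESeq2's test, its size factors or library totals. L13 against WT at R-1 gave 2 rather than 1 under those 3 settings and without both WT R-3 libraries. Without 1 library, counts ranged from 0 to 1 for L12 against WT at HS-1, 1 to 4 at HS-11 and 0 to 2 at R-3, 0 to 1 for L13 against WT at R-1, 2 to 4 for L13 against L12 at R-1, 0 to 2 for L13 from R-1 to R-3, and 2 to 4 for the L13 minus WT change from HS-11 to R-1. The cause of the other shifts was not tested.

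With only the compared libraries the number of all genes called was 2047 rather than 887 for L12 against WT at HS-1 and 228 rather than 1031 at R-3. It was 752 rather than 1409 for L13 against WT at R-1, 1711 rather than 3199 at R-3, 1860 rather than 3473 for L13 from R-1 to R-3, 722 rather than 2344 for WT from R-1 to R-3, 5145 rather than 2610 for L13 at HS-11 against WT at HS-5, and 7 rather than 0 for L12 from R-1 to R-3. No filter gave 8 for that last step. DESeq2's test called 684 genes for L12 and 2070 for L13 against WT at R-3. Depth limits WT at R-3, where 1 count decides values of HSFA2, HSFA3 and HSFA7B. HSFA7A (4 and 3 counts), HSFB2A (5 and 2) and HSFB2B (2 and 7) rested on few counts there too.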
